A study of Mus musculus with 33 samples.

Results

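The data described here are the change in gene expression between day 12 and day 21 of a mouse retinal culture kept under cone-inducing conditions. They rest on 6 of the 33 RNA sequencing libraries of the study, chosen by their titles: the 3 labelled day 21, cone induction, and the 3 labelled day 12, cone induction. All cells came from embryonic day 14 retina of C57BL/6J mice, were labelled retinal progenitor cells, and carried no engineered allele per the labels. The cone groups were treated with COCO protein, also known as Dand5, a secreted protein that blocks TGF-beta, BMP and Wnt ligands. The rod groups at the same days, 3 libraries each, were treated with taurine and retinoic acid and share no library with the cone groups. Bulk total RNA was sequenced after low-input library preparation, and the labels do not say whether the 3 libraries of a group came from separate litters or cultures. The p-values therefore measure a spread between libraries that may be technical. That spread was pooled over the 11 groups of all 33 libraries. Its coefficient of variation was 0.213 over all groups, against 0.241 in cone day 12 and 0.228 in cone day 21. How long each factor stayed in the medium is not given in the sources used here.

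Retinal progenitors divide, leave the cell cycle in a set order and become neurons, with ganglion cells, cones, horizontal and amacrine cells among the early types and rods, bipolar cells and Muller glia among the later ones. Muller glia, the radial glia of the retina, share many genes with progenitors and keep some of them into adult life. Photoreceptors are recognised by Crx and Otx2, transcription factors of both rods and cones, by Nrl and Nr2e3 in rods, and by Thrb, the opsins Opn1sw and Opn1mw, Arr3 and Gnat2 in cones.

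Counts in genes ranged from 9214279 to 14498049 in the 6 libraries, and 20587 to 23195 genes had at least 1 count. A gene with no count could have had up to 3 counts, a floor of 0.222 to 0.394 CPM, where CPM are counts scaled to the library size as adjusted by edgeR. Replicate 1 of day 21 stood apart from the other libraries. Reads over no annotated gene made up 14.6% of its reads against 26.5% to 28.8% in the other 5, and genes overlapping ribosomal RNA took 25.0% of its gene counts against 12.3% to 16.4%. Mitochondrial genes took 14.5% to 18.6% of gene counts at day 12 and 12.2% to 12.9% at day 21. The part of these measures in the changes below was not tested, and counts are also given without that library. Markers of the labelled progenitor type were examined. All 16 progenitor genes passed the filter on low counts, which a gene can pass through other groups of the study. With only these 6 libraries 13 passed. The summed level of the 16 was 1255, 1245 and 1299 CPM at day 12 and 1335, 1497 and 1259 CPM at day 21. As Muller glia share many genes with progenitors, these levels do not settle the cell type.

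Of 18150 genes tested, 610 (3.36%) differed between the days at an adjusted p under 0.05. At day 21, 460 genes (2.53%) were higher and 150 (0.826%) lower, and 227 of the 610 changed by at least 2-fold, 168 upwards and 59 downwards. The median log2 fold change was 0.84 among the genes called higher, -0.87 among those called lower and 0.02 over all genes tested. Genes called lower were long, with a median exon length of 7586 bases against 3838 over all genes tested and 4157 among those called higher. The part of that length difference in the calls was not tested. With 1 library left out in turn, 147 genes (without day 21 replicate 1) to 523 (without day 21 replicate 3) were called, and 193 without day 12 replicate 3. The days did not overlap in 603 of the 610 genes, and in 22.1% of all genes tested. Of the 610 genes, 92 were called in all 6 of the fits that left out a library. All 610 kept their direction in each, which is nearly fixed in advance for genes without overlap. With only the 6 cone libraries in the fit 357 genes were called, 244 of them among the 610. In the fit of all 33 libraries, 3304 of the 18150 genes had an unadjusted p under 0.05 by edgeR. On the same libraries DESeq2 called 1013 genes and voom 818.

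**Figure D1:**
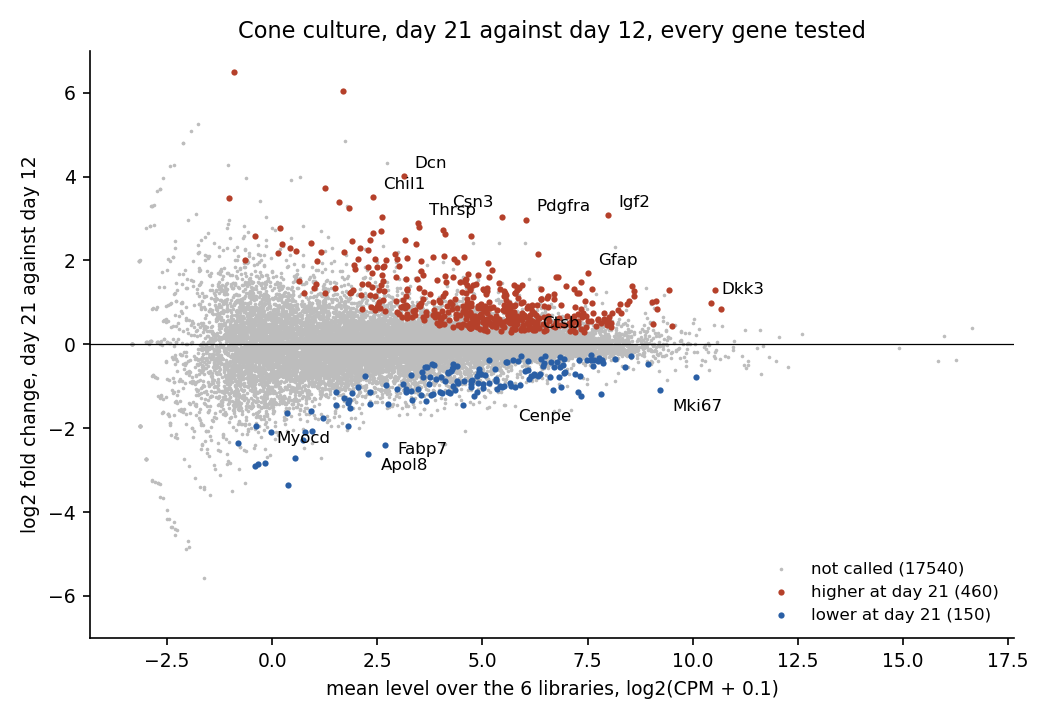
Each point is 1 of the 18150 genes tested, placed by its mean level over the 6 cone libraries (log2 of CPM + 0.1, horizontal) and its log2 fold change at day 21 against day 12 (vertical). The 460 red genes are higher and the 150 blue genes lower at an adjusted p under 0.05, and the labelled genes are described in the text.

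A few mitotic genes fell. Of 20 genes of spindle assembly, chromosome segregation and the G2 to M transition, 4 were called lower and none higher, against 0.826% of all genes called lower. The median log2 fold change of the list was -0.71, all 20 had a negative value, and 17 had no overlap between the days, where 8.59% of all genes were lower without overlap. Mki67, the proliferation antigen that coats mitotic chromosomes, had 699.7, 737 and 1006 CPM in the day 12 libraries and 381, 364 and 394 CPM in the day 21 libraries. All 3 day 21 libraries were lower and close to each other. The log2 fold change of Mki67 was -1.10 ± 0.29 (SE, n = 3 per group; edgeR adjusted p = 0.0362). Cenpf, a kinetochore protein, went from 261, 283 and 402 CPM to 143, 136 and 134 CPM, a fall of 2.29-fold (log2 -1.20 ± 0.28, edgeR adjusted p = 0.0184). Cenpe, a kinesin that moves chromosomes to the metaphase plate, went from 200, 182 and 303 CPM to 107, 85.2 and 98.6 CPM (log2 -1.24 ± 0.29, edgeR adjusted p = 0.0159). Kif11, the kinesin that separates spindle poles, went from 75.1, 67.6 and 93.4 CPM to 45.9, 37.5 and 37.2 CPM (log2 -0.97 ± 0.25, edgeR adjusted p = 0.0315). In each of these genes day 12 replicate 3 was the highest library, and without it none of the 20 was called: the adjusted p became 0.155 for Mki67, 0.109 for Cenpf, 0.109 for Cenpe and 0.141 for Kif11, while the list median was -0.57. The list also held no call without day 21 replicate 1 or without day 21 replicate 2. DESeq2 called 9 of the 20 lower and voom called 8.

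Many mitotic promoters carry CCAAT boxes, bound by NF-Y, and the CHR element TTTGAA, bound by the DREAM and MuvB complexes. RefSeq windows on GRCm38.p6 from 250 bases before to 50 bases after the start were searched for both on both strands, with the motifs in capitals. They are shown for 2 called genes that hold both motifs, Mki67 at chr7:135716330-135716629 (minus strand) and Kif11 at chr19:37376132-37376431 (plus strand).
Mki67: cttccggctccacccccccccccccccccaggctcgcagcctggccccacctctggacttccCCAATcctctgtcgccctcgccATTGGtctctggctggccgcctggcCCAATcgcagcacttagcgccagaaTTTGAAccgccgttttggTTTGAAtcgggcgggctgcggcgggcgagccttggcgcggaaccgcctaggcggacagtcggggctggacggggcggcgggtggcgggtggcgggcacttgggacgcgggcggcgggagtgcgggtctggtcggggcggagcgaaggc
Kif11: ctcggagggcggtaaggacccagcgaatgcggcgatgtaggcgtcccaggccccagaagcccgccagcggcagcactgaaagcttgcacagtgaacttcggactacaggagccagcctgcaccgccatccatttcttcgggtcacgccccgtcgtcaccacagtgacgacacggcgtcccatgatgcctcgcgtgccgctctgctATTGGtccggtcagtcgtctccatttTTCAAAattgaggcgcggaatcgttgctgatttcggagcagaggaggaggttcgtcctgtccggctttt
The Mki67 window held 2 matches to TTTGAA and 3 to CCAAT, and the Kif11 window 1 of each. CCAAT was present in 14 of the 16 windows of listed mitotic genes (87.5%) and in 37.4% of all 32851 windows, and TTTGAA in 11 of 16 (68.8%) and in 17.9% of all. The windows of the 4 called genes all held CCAAT and 3 held TTTGAA. These shares describe letters in fixed windows and not binding.

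Genes of DNA replication had lower values too, without calls. None of 20, among them the Mcm helicase subunits, was called by edgeR (11 of 20 at an unadjusted p under 0.05), with 1 called lower by DESeq2 and 2 by voom. Their median log2 fold change was -0.52 and 9 were lower without overlap, as were 8.59% of all genes. Rrm1, the large subunit of ribonucleotide reductase, had 74.8, 75.7 and 94.2 CPM at day 12 and 67.7, 49.0 and 52.4 CPM at day 21 (edgeR adjusted p = 0.168). Mcm6, a helicase subunit, had 49.1, 53.4 and 67.7 CPM against 49.99, 36.6 and 40.4 CPM, so its days overlapped (edgeR adjusted p = 0.359).

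Genes that repair DNA by homologous recombination and protect the replication fork were listed after values had been seen, so their counts carry no independent weight. Of 25 such genes 10 were called lower, against 0.826% of all genes, and none higher, the median was -0.66, and all 25 had a negative log2 fold change. Rif1, which controls replication timing and end resection, went from 122, 136 and 148 CPM to 81.3, 99.0 and 97.9 CPM (log2 -0.55 ± 0.11, edgeR adjusted p = 0.00563). Brca2, a central mediator of homologous recombination, went from 36.2, 33.9 and 41.8 CPM to 23.9, 24.0 and 22.0 CPM (log2 -0.68 ± 0.13, edgeR adjusted p = 0.00445). Rif1 and Brca2 were lower in each day 21 library than in any day 12 library, and both were called in all 6 fits that left out a library. Hells, a chromatin remodeller of DNA methylation, and Atad5, which unloads PCNA, fell as well: Hells by 0.82 ± 0.22 on the log2 scale (edgeR adjusted p = 0.0328) and Atad5 by 0.59 ± 0.13 (edgeR adjusted p = 0.00998). Hells had an adjusted p of 0.131 and Atad5 of 0.0805 without day 12 replicate 3, and 2 of the 25 genes were called, as many as without day 21 replicate 1.

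A few genes of cell cycle arrest and the p53 response rose. Of 16 members tested, 3 were called higher and none lower (18.8% of the list against 2.53% of all genes called higher), with a list median of 0.17. Cdkn2a, which encodes p16 and p19ARF, had 6.65, 3.34 and 5.80 CPM at day 12 and 17.1, 12.3 and 9.77 CPM at day 21 (log2 1.31 ± 0.31, edgeR adjusted p = 0.0185). Sesn1, a p53 target that restrains mTORC1, had 49.7, 43.8 and 51.2 CPM and then 98.7, 69.3 and 68.9 CPM (log2 0.71 ± 0.18, edgeR adjusted p = 0.0310). Trp53inp1, a p53 target of autophagy, had 104, 90.5 and 115 CPM and then 160, 120 and 148 CPM (log2 0.46 ± 0.13, edgeR adjusted p = 0.0482). None of the 3 genes overlapped between the days. Without day 21 replicate 1 none of the 3 was called, with adjusted p of 0.129 for Cdkn2a, 0.240 for Sesn1 and 0.261 for Trp53inp1, and none was called without day 12 replicate 2 or day 12 replicate 3.

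The list with the most called genes was that of the lysosome, the acidic organelle that breaks down proteins, lipids and sugar chains. This list of 61 textbook members was the longest, and it was also drawn up after values had been seen, so its counts carry no independent weight. Of 60 tested, 30 were called higher and none lower, against 2.53% of all genes called higher. The list's median log2 fold change was 0.58, and 46 members were higher in every day 21 library than in any day 12 library, where 13.5% of all genes were. Summed over the list, the level was 3183, 2919 and 3164 CPM at day 12 and 5280, 4579 and 4310 CPM at day 21. It had been 1733 CPM in cone primed cells at day 0 and 1907 CPM at day 5, and was 6043 CPM at day 35, all means of 3 libraries.

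Among lysosomal proteases, Ctsb (cathepsin B) had 142, 129 and 120 CPM at day 12 and 282, 250 and 246 CPM at day 21, with no overlap (log2 0.99 ± 0.15, edgeR adjusted p = 0.000651). Ctsl (cathepsin L) had 194, 164 and 174 CPM and then 367, 271 and 251 CPM (log2 0.74 ± 0.14, edgeR adjusted p = 0.00352). Psap, the precursor of the saposins that present lipids to hydrolases, had 186, 190 and 186 CPM and then 304, 289 and 259 CPM (log2 0.60 ± 0.11, edgeR adjusted p = 0.00268). The day 12 libraries of Psap were nearly equal and all 3 day 21 libraries lay above them. Lamp1, a glycoprotein of the lysosomal membrane, had 206, 180 and 200 CPM and then 353, 251 and 259 CPM (log2 0.56 ± 0.15, edgeR adjusted p = 0.0434). Gaa, the acid glucosidase that degrades glycogen and is lost in Pompe disease, had 69.5, 64.8 and 62.9 CPM and then 134, 133 and 99.3 CPM (log2 0.89 ± 0.12, edgeR adjusted p = 0.000221). Gaa and Man2b1, the lysosomal alpha-mannosidase, were picked after their values were seen, as 2 of the smallest p-values in the list. Man2b1 had 26.9, 25.9 and 27.8 CPM and then 52.5, 52.6 and 44.0 CPM (log2 0.89 ± 0.11, edgeR adjusted p = 0.000173). Not every abundant member was called: Ctsd (cathepsin D) had 479, 416 and 581 CPM and then 852, 765 and 697 CPM (edgeR adjusted p = 0.0832). Between 11 genes (without day 21 replicate 1) and 32 of the 60 were called with a library left out, and 11 were called in all 6 such fits, Ctsb, Psap, Gaa and Man2b1 among them. Without day 21 replicate 1, Lamp1 had an adjusted p of 0.315 and Ctsl of 0.0564. The microglia and macrophage list, whose cells are rich in lysosomes, had a summed level of 89.8, 59.7 and 31.6 CPM at day 12 and 95.8, 157 and 133 CPM at day 21. None of its 16 tested genes was called by edgeR (4 at an unadjusted p under 0.05, and 1 called by each of DESeq2 and voom), all 16 had a positive log2 fold change, with a median of 1.16, and its part in the lysosomal rise was not tested.

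The transcription factors TFEB and TFE3 bind the E-box CACGTG in lysosomal promoters, in an extended form, the CLEAR element, which contains the E-box. The promoter windows of 3 called genes with an E-box match on either strand are shown with the E-box in capitals: Ctsa, the protective protein cathepsin A, at chr2:164833523-164833822 (plus strand), Lamp1 at chr8:13158911-13159210 (plus strand) and Gaa at chr11:119267713-119268012 (plus strand).
Ctsa: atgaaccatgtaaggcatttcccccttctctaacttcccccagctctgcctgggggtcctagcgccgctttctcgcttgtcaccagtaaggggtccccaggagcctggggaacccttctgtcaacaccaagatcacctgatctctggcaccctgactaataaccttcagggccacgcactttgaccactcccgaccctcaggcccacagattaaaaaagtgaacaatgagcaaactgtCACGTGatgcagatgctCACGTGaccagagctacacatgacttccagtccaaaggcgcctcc
Lamp1: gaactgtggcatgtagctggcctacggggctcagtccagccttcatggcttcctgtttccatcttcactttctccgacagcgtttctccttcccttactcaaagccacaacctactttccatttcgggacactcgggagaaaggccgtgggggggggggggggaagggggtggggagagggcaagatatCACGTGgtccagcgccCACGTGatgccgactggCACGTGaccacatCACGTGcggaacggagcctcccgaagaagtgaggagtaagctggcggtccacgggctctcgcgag
Gaa: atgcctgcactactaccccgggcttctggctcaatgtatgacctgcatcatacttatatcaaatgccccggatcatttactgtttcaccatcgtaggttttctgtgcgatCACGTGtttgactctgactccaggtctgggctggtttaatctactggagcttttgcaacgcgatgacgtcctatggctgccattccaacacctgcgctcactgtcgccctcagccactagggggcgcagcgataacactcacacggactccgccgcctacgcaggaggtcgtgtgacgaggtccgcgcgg
The window of Lamp1 held 4 matches, that of Ctsa 2 and that of Gaa 1. Of 54 windows of listed lysosomal genes, 15 held CACGTG (27.8%) against 7.15% of all windows. For the CLEAR element, only exact matches to 1 fixed 10-base form were counted. Such matches were found in 1 of the 54 windows (1.85%) against 0.326% of all windows, and in none of the 26 windows of called genes. Forms that differ from it in any base were not searched, so these counts do not show that the called genes lack the element. Among those 26 windows, 7 held the E-box. Ctsa had 58.8, 62.0 and 55.5 CPM at day 12 and 105, 89.9 and 90.7 CPM at day 21 (log2 0.69 ± 0.12, edgeR adjusted p = 0.00220), and was called in all 6 fits that left out a library.

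**Figure D2:**
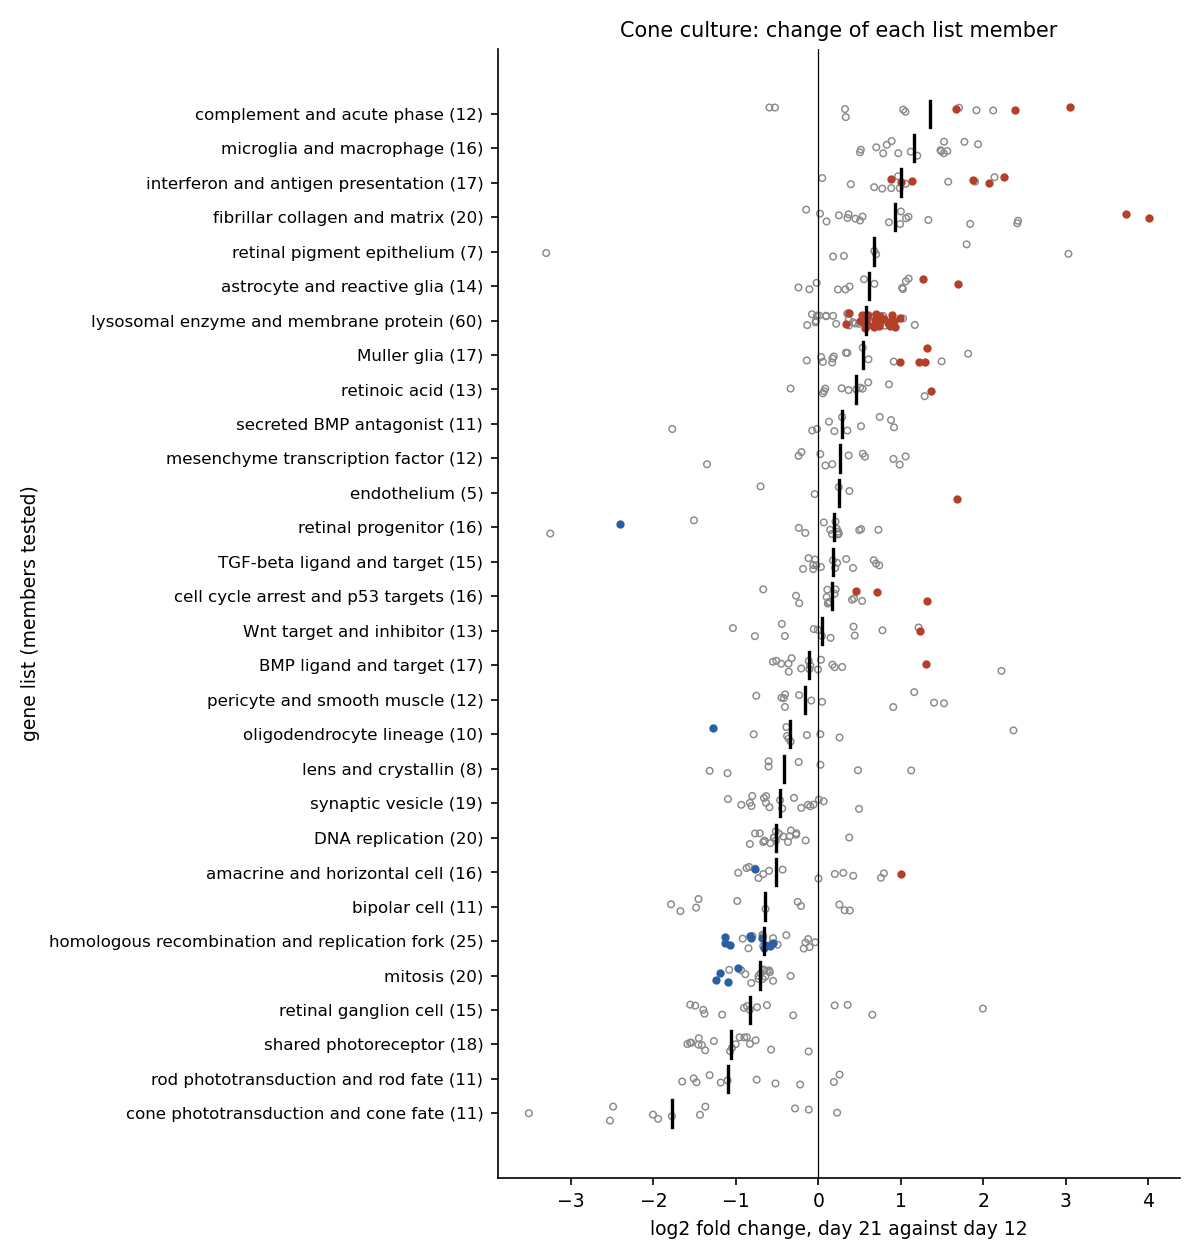
Each point is the log2 fold change of 1 gene at day 21 against day 12 in the cone culture, arranged by gene list with the number tested in brackets; filled points were called (red higher, blue lower), open points were not, and the bar is the list median. Red points crowd the lysosomal list (30 of 60), while the photoreceptor lists at the bottom hold open points only.

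Some glial genes rose. Of 17 Muller glia genes 4 were called higher, against 2.53% of all genes, and none lower, 16 had a positive log2 fold change and the median was 0.54. Dkk3, a secreted protein of the Dickkopf family abundant in Muller glia, had 966, 856 and 940 CPM at day 12 and 2110, 1777 and 1604 CPM at day 21 (log2 0.99 ± 0.18, edgeR adjusted p = 0.00328), and was called in all 6 fits that left out a library. Rlbp1, the retinaldehyde-binding protein of Muller glia and pigment epithelium, had 41.1, 65.9 and 36.5 CPM and then 135, 119 and 104 CPM (log2 1.31 ± 0.34, edgeR adjusted p = 0.0309). The lipid carrier Apoe had 616, 349 and 237 CPM and then 1077, 1042 and 820 CPM (log2 1.29 ± 0.36, edgeR adjusted p = 0.0470). In all of these genes the day 21 libraries lay above the day 12 libraries. Gpr37, a receptor for prosaposin-derived peptides, rose by 2.33-fold (log2 1.22 ± 0.30, edgeR adjusted p = 0.0233). Glul, the glutamine synthetase that defines mature Muller glia, had 154, 134 and 172 CPM and then 163, 183 and 176 CPM, with overlap (edgeR adjusted p = 0.629). Of 14 astrocyte and reactive glia genes 2 were called higher, against the same 2.53%. Gfap, the intermediate filament of reactive glia, had 141, 77.0 and 40.4 CPM and then 333, 332 and 169 CPM (log2 1.69 ± 0.44, edgeR adjusted p = 0.0320). Mlc1, a membrane protein of perivascular glial endfeet, had 28.8, 18.4 and 13.8 CPM and then 49.5, 59.4 and 37.2 CPM (log2 1.27 ± 0.35, edgeR adjusted p = 0.0464). Without day 12 replicate 3, the library lowest in Apoe, Gfap, Rlbp1, Gpr37 and Mlc1, these 5 were not called (adjusted p 0.203, 0.155, 0.143, 0.141 and 0.198). A single Muller gene was also all that was called without either day 21 replicate 1 or day 21 replicate 2, and no astrocyte gene was called without either of these or without day 12 replicate 2.

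Some interferon response and antigen presentation genes rose. Of 17 tested, 6 were called higher and none lower (35.3%, against 2.53% of all genes called higher). All 17 had a positive log2 fold change, with a median of 1.00, and 12 were higher without overlap, as were 13.5% of all genes. DESeq2 called 11 and voom 9. The summed level was 203, 180 and 186 CPM at day 12 and 402, 278 and 381 CPM at day 21. Ifit1, which binds uncapped foreign RNA, had 3.85, 4.43 and 2.24 CPM at day 12 and 17.3, 9.25 and 17.4 CPM at day 21 (log2 2.06 ± 0.47, edgeR adjusted p = 0.0172). Irf7, the master transcription factor of type I interferon, had 2.33, 1.48 and 1.16 CPM and then 10.2, 5.14 and 7.99 CPM (log2 2.25 ± 0.42, edgeR adjusted p = 0.00352), and Ifit3, a partner of Ifit1, had 4.78, 3.81 and 1.86 CPM and then 13.9, 8.99 and 14.9 CPM (log2 1.87 ± 0.38, edgeR adjusted p = 0.00648). These 2 were picked after their values were seen. B2m, the light chain of MHC class I, had 45.9, 43.3 and 53.1 CPM and then 101, 66.2 and 94.8 CPM (log2 0.88 ± 0.19, edgeR adjusted p = 0.0115). H2-K1, a class I heavy chain, rose by 2.19-fold (log2 1.13 ± 0.26, edgeR adjusted p = 0.0145), and Tap1, a subunit of the peptide transporter, by 2.00-fold (log2 1.00 ± 0.27, edgeR adjusted p = 0.0344). H2-K1, Ifit1 and Ifit3 have near-identical relatives, so reads between family members may have been split. Irf7 was called in all 6 fits that left out a library. Without day 21 replicate 1, 2 of the list were called, with adjusted p of 0.0942 for B2m and 0.0907 for H2-K1. Also 2 were called without day 12 replicate 3, with adjusted p of 0.1004 for Ifit1 and 0.0588 for Ifit3, and without day 12 replicate 2 the adjusted p of Tap1 was 0.160. The microglia list, whose cells present antigen, had the summed levels given above, and its part here was not tested.

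Interferon-stimulated response elements (ISRE) hold a pair of GAAA repeats 2 bases apart. Matches to that core on either strand are in capitals for Ifit1 at chr19:34640639-34640938 (plus strand) and Ifit3 at chr19:34583279-34583578 (plus strand), 2 called genes in which they lie upstream of the start.
Ifit1: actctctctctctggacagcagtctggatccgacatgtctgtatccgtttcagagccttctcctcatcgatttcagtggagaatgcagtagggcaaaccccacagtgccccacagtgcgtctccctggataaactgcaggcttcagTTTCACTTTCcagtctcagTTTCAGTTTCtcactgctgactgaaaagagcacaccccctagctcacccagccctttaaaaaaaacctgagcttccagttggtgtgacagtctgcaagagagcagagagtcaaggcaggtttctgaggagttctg
Ifit3: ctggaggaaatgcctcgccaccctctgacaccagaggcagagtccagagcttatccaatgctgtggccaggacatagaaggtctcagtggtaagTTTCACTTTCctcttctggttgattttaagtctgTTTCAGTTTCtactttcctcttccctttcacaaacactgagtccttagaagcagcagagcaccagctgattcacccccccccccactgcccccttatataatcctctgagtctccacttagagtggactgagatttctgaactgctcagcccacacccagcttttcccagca
Each of these windows held 2 matches, all read on the minus strand. Of 19 windows of listed genes, 6 held the motif (31.6%) against 3.44% of all windows, and among the 7 windows of called genes 3 did, those of Ifit1, Ifit3 and B2m. No match in the window of Irf7 says only that these letters are not there.

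Complement and acute phase genes showed the highest list median, 1.36 over 12 tested, with 3 called higher, against 2.53% of all genes, and none lower. C3, the central complement component, had 3.73, 3.18 and 3.25 CPM at day 12 and 18.6, 27.0 and 7.48 CPM at day 21 (log2 2.38 ± 0.57, edgeR adjusted p = 0.0198). C4b had 1.87, 0.777 and 1.39 CPM and then 6.43, 19.5 and 6.37 CPM (log2 3.04 ± 0.76, edgeR adjusted p = 0.0337), although it has a near-identical copy beside it. Serping1, the C1 inhibitor, had 5.95, 4.74 and 6.57 CPM and then 18.8, 20.2 and 15.7 CPM (log2 1.66 ± 0.40, edgeR adjusted p = 0.0207). In all 3 genes the lowest day 21 library stood above the highest day 12 library. Each of them was called in 1 of the 6 fits that left out a library, with adjusted p up to 0.104 for C3 and 0.152 for C4b, both without day 21 replicate 2, and up to 0.0965 for Serping1 without day 12 replicate 2.

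**Figure D3:**
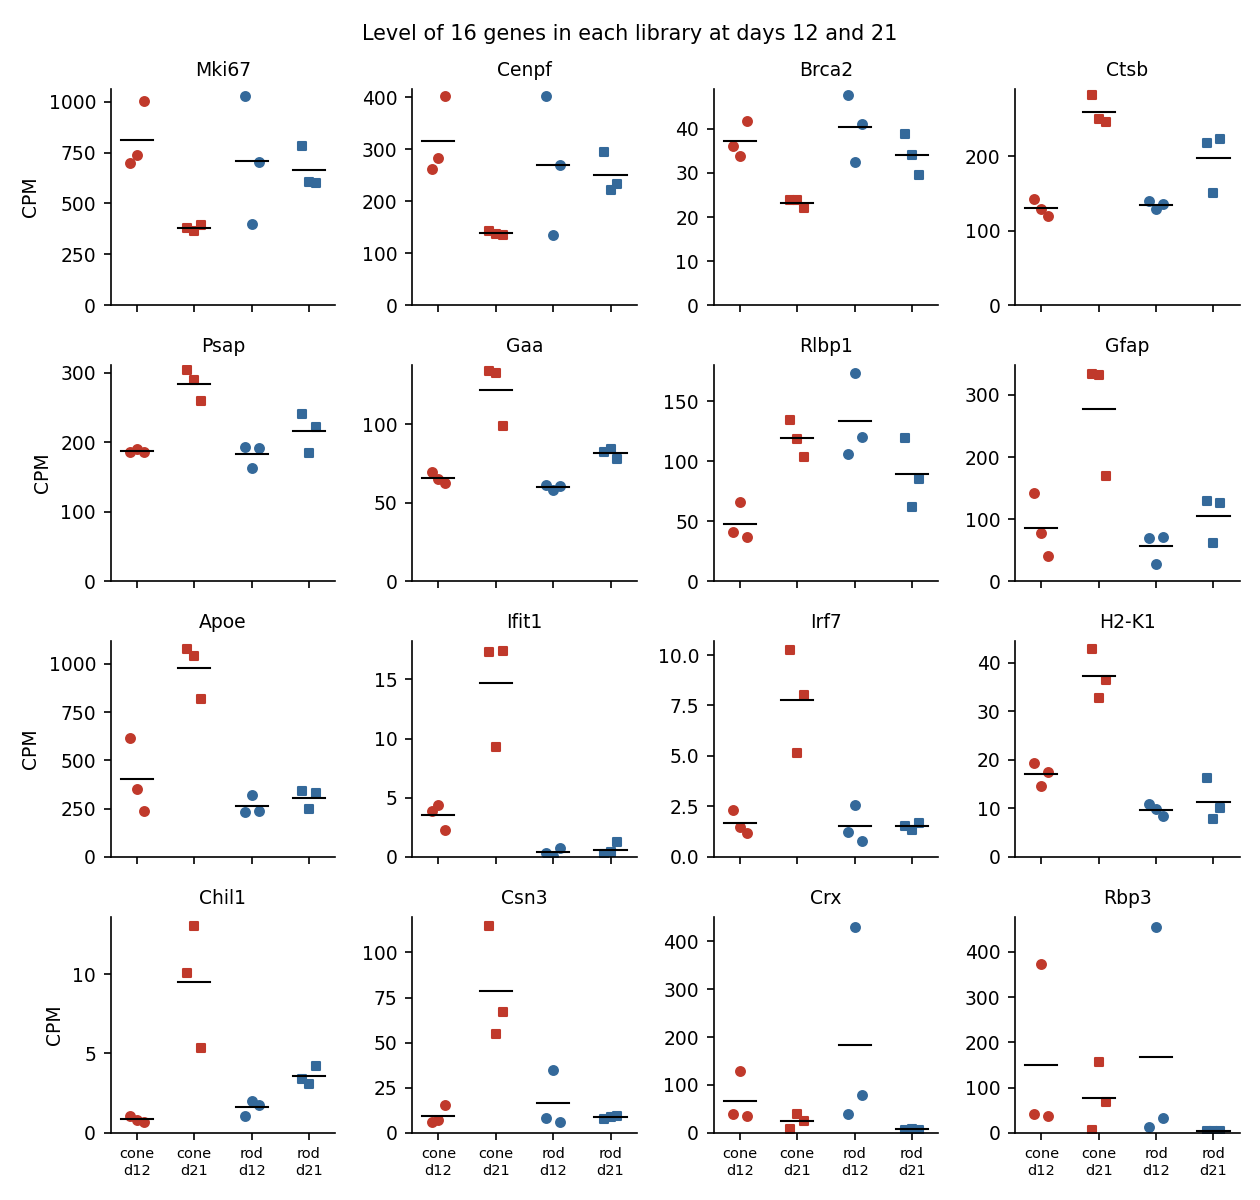
Levels in CPM (vertical axes, from 0) of 16 genes in each library at day 12 (circles) and day 21 (squares), cone culture in red and rod culture in blue, with the mean of 3 libraries as a bar. Mki67, Cenpf and Brca2 are lower and Ctsb, Psap, Gaa, Ifit1, Irf7 and Chil1 higher in every cone library at day 21, while Crx and Rbp3 are set by 1 high library at day 12 in each culture.

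Photoreceptor genes gave no call. No member of the cone (11 tested), rod (11) or shared photoreceptor (18) lists was called. At an unadjusted p under 0.05 there were 7, 0 and 1 genes, against 3304 of all 18150. DESeq2 called 3 cone genes lower and none of the others, and voom called none. Lower without overlap were 4 cone, 0 rod and 0 shared genes, as were 8.59% of all genes. List medians were -1.78, -1.10 and -1.06. With only the 6 libraries of these days in the fit, 7 cone, 11 rod and 18 shared genes passed the filter on low counts. For the remaining cone genes the lack of a call says little. The summed level of the 18 shared genes was 331, 2158 and 365 CPM at day 12 and 67.0, 667 and 468 CPM at day 21, so replicate 2 was highest at both days and replicate 1 of day 21 lowest. Without day 12 replicate 2 the medians became -0.71 for cone, 0.77 for rod and 0.32 for shared genes.

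Crx, which switches on photoreceptor genes, had 38.4, 129 and 34.4 CPM at day 12 and 8.00, 39.6 and 25.1 CPM at day 21 (edgeR adjusted p = 0.212). Otx2 had 12.5, 41.5 and 14.8 CPM and then 6.56, 19.3 and 11.6 CPM (edgeR adjusted p = 0.355), and Rbp3, the retinoid carrier between photoreceptors and pigment epithelium, 40.7, 373 and 36.8 CPM and then 5.90, 157 and 68.5 CPM (edgeR adjusted p = 0.649). The days overlapped in all 3. Thrb, the thyroid hormone receptor that directs cone opsin choice, had 17.7, 33.8 and 9.05 CPM and then 21.3, 25.1 and 24.5 CPM (edgeR adjusted p = 0.823). Gnat2, the cone transducin subunit, had 2.80, 9.09 and 1.78 CPM and then 0.656, 1.46 and 1.33 CPM, and Arr3, cone arrestin, had 1.28, 2.17 and 0.619 CPM and then 0, 0.257 and 0.370 CPM. Neither gene overlapped between the days, and neither was called (edgeR adjusted p = 0.0860 and 0.106). The opsin Opn1sw reached 1.86 CPM in day 12 replicate 2 and lay between 0 and 0.309 CPM in the other 5 libraries, and Opn1mw between 0 and 0.342 CPM in all 6. Nrl had 0.816, 15.1 and 2.47 CPM and then 0, 3.77 and 2.37 CPM, and Nr2e3 had 2.68, 33.1 and 6.34 CPM and then 0, 7.02 and 5.77 CPM. Sag, rod arrestin, had 22.5, 192 and 25.5 CPM and then 3.15, 44.3 and 37.6 CPM. Nrl, Nr2e3 and Sag were highest in day 12 replicate 2, lowest in day 21 replicate 1, and not called (edgeR adjusted p = 0.560, 0.575 and 0.497). Sox15, the gene named in the study's title, had 0.350, 0.544 and 0.309 CPM at day 12 and 0.131, 0.0856 and 0.296 CPM at day 21, close to the floor of 3 counts (edgeR adjusted p = 0.522).

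**Figure D4:**
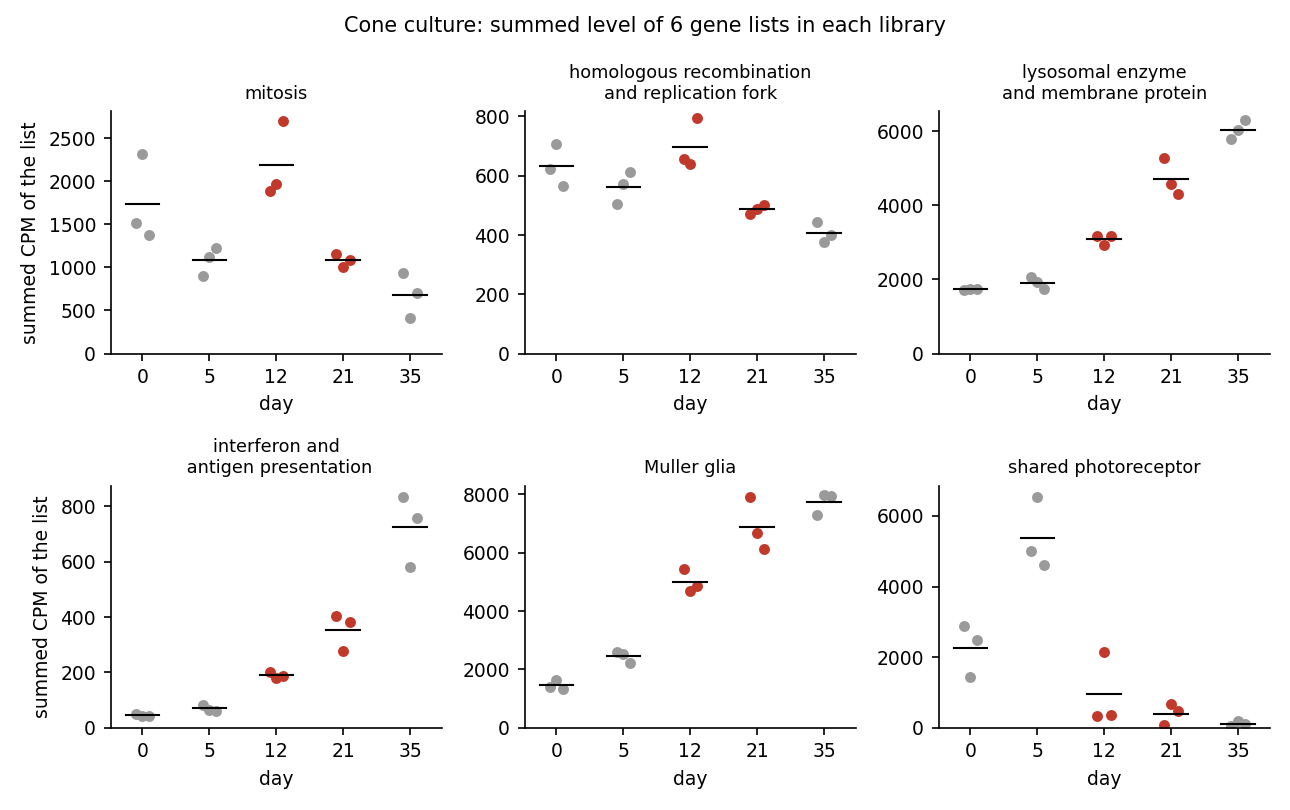
Summed CPM of 6 gene lists (vertical axes, from 0) in each cone library at days 0 (primed), 5, 12, 21 and 35; days 12 and 21 are red, other days grey, and bars are means of 3 libraries. The mitosis list is lower and the lysosomal, interferon and Muller glia lists higher at day 21 than at day 12, whereas the shared photoreceptor genes spread from 331 to 2158 CPM within day 12.

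Of 16 progenitor genes 1 was called: Fabp7, a brain lipid-binding protein of radial glia, which fell from 16.7, 9.86 and 5.34 CPM to 2.49, 2.23 and 1.33 CPM (5.31-fold, log2 -2.41 ± 0.58, edgeR adjusted p = 0.0212). Its adjusted p was 0.0929 without day 12 replicate 1. The summed levels of the list, given above, overlapped between the days. Over all genes 0.826% were called lower, so 1 call of 16 says little about the list.

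Of the neuronal lists, the 16 amacrine and horizontal genes held 2 calls in opposite directions, where 3.36% of all genes were called. Slc6a9, the glycine transporter of amacrine cells and glia, rose from 24.7, 27.7 and 18.9 CPM to 44.7, 59.6 and 38.6 CPM (log2 1.00 ± 0.21, edgeR adjusted p = 0.00788). Prox1, a homeobox gene of horizontal and amacrine cells, fell from 174, 193 and 232 CPM to 117, 125 and 111 CPM (log2 -0.77 ± 0.14, edgeR adjusted p = 0.00382). Prox1 was called in all 6 fits that left out a library, and Slc6a9 had an adjusted p of 0.0669 without day 12 replicate 3. None of 15 ganglion cell, 11 bipolar or 19 synaptic vesicle genes was called by edgeR, DESeq2 or voom. By edgeR 3304 of all 18150 genes had an unadjusted p under 0.05, and so had 1, 1 and 3 members of these lists. Their medians were -0.83, -0.64 and -0.46, and without day 12 replicate 2 they became -0.37, 0.37 and -0.0052. Syt1, the calcium sensor of vesicle release, had 168, 285 and 150 CPM and then 122, 185 and 138 CPM (edgeR adjusted p = 0.408).

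A pair of proteoglycans of the extracellular matrix rose. Of 20 fibrillar collagen and matrix genes 2 were called higher, against 2.53% of all genes, and none lower, 19 had a positive log2 fold change and the median was 0.92. Dcn, the proteoglycan decorin, had the greatest rise among the genes named here: 2.22, 1.09 and 0 CPM at day 12 and 22.8, 9.07 and 17.0 CPM at day 21 (log2 4.00 ± 0.95, edgeR adjusted p = 0.0216). Lum, the related keratan sulfate proteoglycan lumican, had 0, 0.466 and 0.387 CPM and then 5.12, 2.82 and 4.96 CPM (log2 3.73 ± 0.89, edgeR adjusted p = 0.0198). Both were near the floor at day 12, and without day 12 replicate 3 the adjusted p was 0.107 for Dcn and 0.0780 for Lum. No gene of the list was called without day 12 replicate 2 or day 21 replicate 1 either, or by voom. Among uncalled members, Col3a1 had 29.6, 12.8 and 19.7 CPM and then 128, 81.2 and 118 CPM without overlap (edgeR adjusted p = 0.131), and Col1a1 had 216, 244 and 230 CPM and then 340, 208 and 272 CPM. None of 12 pericyte and smooth muscle genes was called by edgeR, DESeq2 or voom, and 2 had an unadjusted p under 0.05 by edgeR. Acta2, smooth muscle actin, had 864, 855 and 1406 CPM and then 1045, 618 and 699.8 CPM, with overlap.

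Markers of other cells were examined for their presence. Over all genes, 2.53% were called higher and 0.826% lower. Flt1, a VEGF receptor, was the 1 endothelial gene of 5 tested that was called (12.2, 15.9 and 7.73 CPM, then 26.2, 47.9 and 40.2 CPM; log2 1.68 ± 0.44, edgeR adjusted p = 0.0315), and it was called in none of the 6 fits that left out a library (adjusted p up to 0.152 without day 12 replicate 3). The endothelial markers Tie1, Cldn5 and Sox17 were at 0 in all 6 libraries and Cdh5 was at or under 0.619 CPM. The summed level of the 12 listed endothelial genes was 199, 274 and 280 CPM at day 12 and 254, 295 and 261 CPM at day 21. Members not named here made up most of that sum. Of the microglia markers, Lyz2 had 27.2, 16.9 and 2.47 CPM and then 25.2, 55.1 and 51.3 CPM, and Cx3cr1 had 7.81, 3.18 and 1.55 CPM and then 3.41, 9.33 and 4.59 CPM. Day 12 replicate 3 was the lowest library in both. None of 7 pigment epithelium genes and none of 8 lens genes was called by edgeR or DESeq2, voom called 1 in each list, and 2 in each had an unadjusted p under 0.05 by edgeR. Rpe65 was at 0 throughout. Olig2, the transcription factor of oligodendrocyte precursors, had 16.4, 7.69 and 4.79 CPM and then 6.17, 8.90 and 13.7 CPM (edgeR adjusted p = 0.984), and Ugt8a, an enzyme of myelin lipid synthesis, fell from 4.08, 4.19 and 5.10 CPM to 1.71, 1.80 and 2.00 CPM (log2 -1.27 ± 0.32, edgeR adjusted p = 0.0242; 0.103 without day 12 replicate 3). In bulk RNA, fewer cells of a type and less RNA per cell cannot be told apart, here and for every list above.

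Signalling genes showed single calls. As 2.53% of all genes were called higher, 1 call in a list of 13 or 17 says little about a pathway. Bmp7, a BMP ligand of the eye, was the 1 called of 17 BMP genes, rising from 15.5, 12.1 and 17.4 CPM to 32.3, 47.9 and 30.9 CPM (log2 1.30 ± 0.22, edgeR adjusted p = 0.00203). Sfrp1, a secreted Wnt antagonist, was the 1 called of 13 Wnt genes, rising from 77.1, 77.7 and 118 CPM to 248, 253 and 141 CPM (log2 1.23 ± 0.32, edgeR adjusted p = 0.0293). Dhrs3, which reduces retinaldehyde and limits retinoic acid synthesis, was the 1 called of 13 retinoic acid genes, rising from 25.4, 31.2 and 37.9 CPM to 82.4, 85.9 and 75.9 CPM (log2 1.36 ± 0.28, edgeR adjusted p = 0.00806). Bmp7 and Dhrs3 were called in all 6 fits that left out a library, whereas Sfrp1 had an adjusted p of 0.145 without day 21 replicate 1. None of 15 TGF-beta genes, 11 secreted BMP antagonists or 12 mesenchymal transcription factors was called by edgeR or DESeq2, and voom called 1, 1 and 0. At an unadjusted p under 0.05 by edgeR there were 2, 4 and 2. Thbs1, a TGF-beta target and activator, had 1067, 1137 and 1560 CPM and then 1350, 1028 and 1225 CPM (edgeR adjusted p = 0.950). In the rod culture over the same days, 9 of the 15 TGF-beta genes were called higher, where 4.88% of all genes were. The difference between the cultures was called for 1 of the 15 by edgeR, 3 by DESeq2 and 8 by voom.

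The greatest rises and falls were taken from called genes whose libraries were apart between the days and whose average log2 CPM was 1 or more. Beside Dcn and C4b, the 12 greatest rises held Chil1, Ebf2, Igf2, Csn3, Pdgfra, Thrsp, Erich5, Il33, Pdyn and Col15a1. Chil1 (chr1:134182176-134190181 on GRCm38), a chitinase-like protein of reactive astrocytes, had 1.05, 0.777 and 0.696 CPM at day 12 and 10.1, 13.0 and 5.33 CPM at day 21 (11.3-fold, log2 3.50 ± 0.45, edgeR adjusted p = 0.000234). Csn3 (chr5:87925579-87932665), kappa-casein, had 5.95, 7.22 and 15.3 CPM and then 114, 54.8 and 67.2 CPM (8.17-fold, log2 3.03 ± 0.45, edgeR adjusted p = 0.000651). Thrsp (chr7:97412938-97417730), a nuclear protein of lipid synthesis, had 2.92, 2.41 and 2.55 CPM and then 11.7, 24.2 and 22.2 CPM (7.43-fold, log2 2.89 ± 0.43, edgeR adjusted p = 0.000651). These 3 were called in all 6 fits that left out a library. Igf2 (chr7:142650766-142666816), the imprinted growth factor, had 72.9, 40.2 and 48.8 CPM and then 135, 431 and 802 CPM (8.48-fold, log2 3.08 ± 0.78, edgeR adjusted p = 0.0269), and ranged widely at day 21. Pdgfra, the PDGF receptor of glial precursors and fibroblasts, had 18.3, 15.9 and 10.2 CPM and then 48.0, 196 and 102 CPM (log2 2.97 ± 0.67, edgeR adjusted p = 0.0140). Il33, a nuclear alarmin found in Muller glia, had 5.25, 5.20 and 2.78 CPM and then 24.0, 48.7 and 14.4 CPM (log2 2.73 ± 0.60, edgeR adjusted p = 0.0113). In each the lowest day 21 library exceeded the highest day 12 library. Pdyn, the dynorphin precursor, rose by 6.50-fold (edgeR adjusted p = 0.0100), Ebf2, a helix-loop-helix factor, by 9.54-fold (0.0154), Col15a1, a basement membrane collagen, by 6.28-fold (0.0251) and Erich5 by 6.97-fold (0.00806). With the library that mattered most left out, the adjusted p was 0.114 for Igf2, 0.0847 for Pdgfra, 0.121 for Col15a1 and 0.0511 for Erich5 (all without day 12 replicate 3), 0.0798 for Il33 (without day 21 replicate 2), 0.0621 for Pdyn (without day 21 replicate 1) and 0.0930 for Ebf2 (without day 12 replicate 2).

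The 12 greatest falls were Apol8, Fabp7, Myocd, Cdkn3, Neb, Zfp711, Cntn6, Scube1, Lat2, Ugt8a, Cenpe and Add2. Apol8 (chr15:77747798-77757003), an apolipoprotein L, had 11.3, 3.65 and 9.74 CPM at day 12 and 0.787, 0.770 and 2.29 CPM at day 21 (6.11-fold, log2 -2.61 ± 0.57, edgeR adjusted p = 0.0103). Myocd (chr11:65176561-65269989), the coactivator myocardin of smooth muscle genes, had 4.20, 7.69 and 4.25 CPM and then 0.918, 1.97 and 1.18 CPM (3.89-fold, log2 -1.96 ± 0.32, edgeR adjusted p = 0.00125). Cntn6 (chr6:104492790-104863406), a neuronal adhesion molecule, had 12.4, 10.3 and 6.73 CPM and then 3.28, 3.08 and 4.44 CPM (2.67-fold, log2 -1.42 ± 0.27, edgeR adjusted p = 0.00352). Myocd and Cntn6 were called in all 6 fits that left out a library. Cdkn3, a phosphatase of cyclin-dependent kinases, fell by 3.36-fold (edgeR adjusted p = 0.0182), Neb, the thin-filament protein nebulin, by 2.86-fold (0.0333), Zfp711 by 2.70-fold (0.0191), Scube1 by 2.62-fold (0.0464), the adaptor Lat2 by 2.51-fold (0.0115) and Add2, a spectrin-binding adducin, by 2.32-fold (0.0207). Left-out libraries ended these calls: the adjusted p rose to 0.0655 for Apol8, 0.0911 for Zfp711 and 0.0717 for Lat2 without day 21 replicate 1, to 0.0819 for Cdkn3 and 0.143 for Neb without day 12 replicate 3, and to 0.178 for Scube1 and 0.141 for Add2 without day 12 replicate 2.

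The same interval was compared in the rod culture. There, 2027 genes (11.2%) were called, 886 higher (4.88%) and 1141 lower (6.29%). The difference between the cultures, tested as an interaction, was called for 78 genes (0.43%): 52 changed more upwards in the cone culture and 26 more downwards. With 1 library left out these 78 became 6 (without cone day 12 replicate 3) to 739 (without rod day 12 replicate 1), and the 2027 rod calls 556 (without rod day 12 replicate 2) to 2926 (without rod day 12 replicate 1). With only the libraries compared in the fit, 0 differences and 1 rod gene were called. Of the 150 genes that fell in the cone culture 3 were called in the difference, and of the 460 that rose 25 were. The summed mitosis level in the rod culture was 2704, 1058 and 1895 CPM at day 12 and 2177, 1674 and 1621 CPM at day 21, with overlap and a median log2 fold change of 0.02. The interferon list had 178, 123 and 146 CPM and then 225, 150 and 192 CPM there, with a median of 0.25, and the microglia list 26.3, 38.3 and 30.6 CPM and then 27.6, 29.0 and 30.5 CPM. Some lists with rises in the cone culture also had them in the rod culture. Called higher there were 6 of 16 cell cycle arrest, 8 of 20 matrix, 3 of 12 complement and 9 of 60 lysosomal genes. Called lower there were 8 of 11 cone, 11 of 11 rod and 18 of 18 shared photoreceptor genes. The shares over all genes were 4.88% higher and 6.29% lower. Day 12 replicate 2 was the highest rod library in each photoreceptor sum. Outside the lysosomal list, none of these genes was called in the difference by edgeR. In the cone, rod and shared photoreceptor lists, 3, 11 and 17 genes had an unadjusted p under 0.05 for it. DESeq2 called 1, 5 and 7 genes and voom 1, 0 and 1. The median differences of these lists were 1.21, 5.95 and 4.00, so they are not shown to change alike. In the arrest, matrix and complement lists DESeq2 called none and voom 6, 4 and 2. The edgeR test of the difference called 0 of the 20 mitosis, 0 of the 17 interferon and 0 of the 16 microglia genes, so these lists are not shown to differ between the cultures. At an unadjusted p under 0.05 there were 12, 6 and 6 genes, DESeq2 called 0, 1 and 0, and voom called 3, 1 and 0. Over all 18150 genes, the difference had 2406 at an unadjusted p under 0.05, 336 called by DESeq2 and 1503 by voom. Scarb2, a lysosomal membrane receptor picked after its values were seen, was the 1 lysosomal member called: it rose in the cone culture from 135, 118 and 98.6 CPM to 234, 201 and 196 CPM, while its log2 change in the rod culture was -0.04 (difference 0.88 ± 0.18, edgeR adjusted p = 0.0303).

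Csn3 was among the genes with the largest differences. In the rod culture Csn3 had 8.07, 34.7 and 5.98 CPM at day 12 and 7.80, 8.73 and 9.19 CPM at day 21, and the cone change exceeded the rod change by 3.96 ± 0.62 on the log2 scale (edgeR adjusted p = 0.00424). Cacna2d3, a calcium channel subunit, had 5.71, 7.22 and 3.63 CPM and then 9.97, 8.99 and 12.1 CPM in the cone culture, and 7.93, 4.09 and 8.80 CPM and then 1.16, 1.70 and 0.717 CPM in the rod culture (difference 3.46 ± 0.44, edgeR adjusted p = 0.000417). Rin1, a Ras effector, had 7.35, 8.54 and 8.81 CPM and then 5.90, 5.65 and 6.88 CPM in the cone culture and 4.43, 2.18 and 2.09 CPM and then 9.57, 8.34 and 10.1 CPM in the rod culture (difference -2.11 ± 0.36, edgeR adjusted p = 0.00933). These 3 differences were called in all 12 fits that left out 1 of the 12 libraries. Neurog2, a proneural factor, rose in the cone culture from 7.23, 11.5 and 8.74 CPM to 21.8, 27.1 and 28.0 CPM (log2 1.48 ± 0.34, edgeR adjusted p = 0.0168, or up to 0.0803 without cone day 12 replicate 3) and fell in the rod culture from 11.9, 25.0 and 17.6 CPM to 5.02, 7.03 and 10.2 CPM (log2 -1.29, edgeR adjusted p = 0.0165). Its rise was called in 3 of the 6 fits that left out a cone library. Its difference was 2.76 ± 0.49 (edgeR adjusted p = 0.0123; 0.0614 without cone day 12 replicate 3). Neb went the other way, falling in the cone culture and rising in the rod culture from 1.14, 0.819 and 0.577 CPM to 2.47, 2.93 and 1.96 CPM (difference -3.04 ± 0.58, edgeR adjusted p = 0.0176; 0.0829 without cone day 12 replicate 3).

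**Figure D5:**
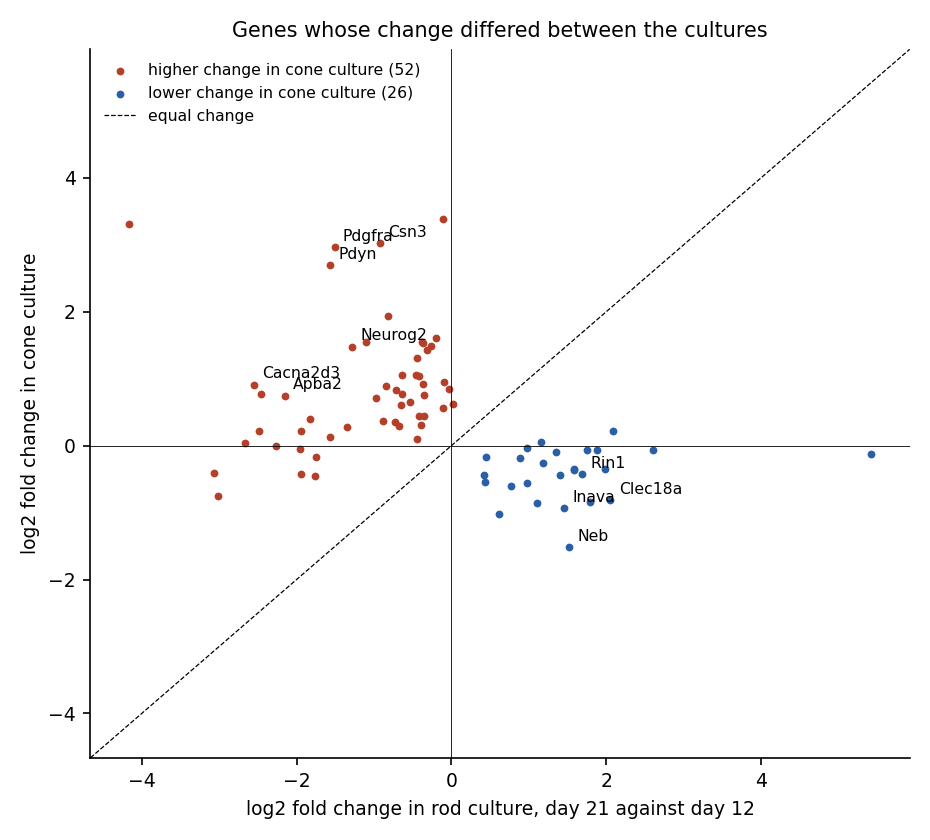
Each point is 1 of the 78 genes whose change between day 12 and day 21 differed between the cultures, placed by its log2 fold change in the rod culture (horizontal) and in the cone culture (vertical); the dashed line marks equal change. The 52 red genes lie above the line and the 26 blue genes below it, and Neurog2 and Neb moved in opposite directions in the 2 cultures.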

How the data were processed

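RNA was sequenced in 33 libraries, 3 in each of 11 groups, and the 6 cone libraries of days 12 and 21 are the subject. The submitters' processing notes name HISAT2, StringTie, HTSeq and the GRCm38 build. Versions and the strand setting of the counting are not given in the sources used here, so overlapping antisense genes may share reads. The authors deposited raw counts per gene and, separately, TPM values. The 5 summary lines of each count table were dropped.

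Counts of all 33 libraries were fitted in edgeR 4.0.16 (R 4.3.3) by the quasi-likelihood test with 1 coefficient per group, TMM scaling, filterByExpr with a minimum count of 10 and Benjamini-Hochberg adjustment, called at an adjusted p under 0.05. Standard errors were the log2 fold change over the square root of F. CPM are counts scaled to the TMM-adjusted library size, and floors cover counting error only. DESeq2 1.42.0, limma 3.58.1 (voom, and log2(TPM + 1) on the deposited TPM values), Python 3.11.15 and pandas 2.3.3 served the alternatives and tables. The fit was tested on simulated counts: of 100 genes changed 2-fold 55% were recovered, of 100 changed 4-fold 79%, with 2 false calls. The simulation gave each gene 1 spread in all groups. The real groups differed, with a coefficient of variation from 0.139 (rod primed, day 0) to 0.355 (rod day 12). False calls in the real data were therefore not measured.

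Named genes were the 12 largest rises and 12 largest falls (called, libraries of the days apart, average log2 CPM 1 or more), the 6 largest differences from the rod culture in each direction, and up to 4 examples per list (2 where none was called). The 28 lists and the members were chosen with earlier results of these data known, and 2 further lists of 86 genes, with Ifit3, Irf7, Ctsa, Gaa, Man2b1, Scarb2, Rif1, Brca2, Hells, Atad5, Psap, Ctsb, Ctsl, Lamp1 and the uncalled or marker genes named for their levels, were added after values were seen. Promoter windows came from RefSeq on GRCm38.p6. Replicate numbers were not used to pair libraries. Results for a few genes are not reported here.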

Additional observations from a re-analysis of the deposited data

Results flagged for a closer look

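The 10 genes below were singled out because their change between day 12 and day 21 differed between the cone and rod cultures at an adjusted p under 0.05 (edgeR interaction test), and are among the largest differences in each direction. The differences in log2 fold change, cone minus rod, were 4.48 for Pdgfra, 4.27 for Pdyn, 3.96 for Csn3, 3.46 for Cacna2d3, 2.90 for Apba2 and 2.76 for Neurog2, and -3.04 for Neb, -2.87 for Clec18a, -2.39 for Inava and -2.11 for Rin1.

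Pdgfra had 15.9, 161 and 45.6 CPM at day 12 and 15.4, 40.1 and 22.6 CPM at day 21 in the rod culture, where day 12 replicate 2 stood highest, and its difference had an adjusted p of 0.0303, or 0.105 without cone day 21 replicate 2. Pdyn had 0.643, 4.03 and 1.44 CPM and then 0.540, 1.00 and 0.522 CPM there (adjusted p = 0.0273, or 0.106 without rod day 12 replicate 2). Apba2, an adaptor of presynaptic terminals, had an adjusted p of 0.0222, Clec18a of 0.0492 and Inava of 0.0404. Without cone day 12 replicate 3 these became 0.0985, 0.182 and 0.157.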

How the results depend on the processing

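With other settings the 610 calls of the cone comparison became 1013 by the DESeq2 Wald test, 357 with only the libraries compared and 15 by limma on log2(TPM + 1), and ranged from 147 to 523 with 1 library left out. The 2027 rod calls became 5892 by voom with sample quality weights, 1 with only the libraries compared and 9 on TPM, and 556 to 2926 with 1 library left out. The 78 calls of the difference became 139 with no filter on low counts, 336 by DESeq2, 1503 by voom, 0 with only the libraries compared (and 0 on TPM), and 6 to 739 with 1 library left out. With a mean of at least 1 CPM, 631 genes were called in the cone culture, 65.3% of them higher against 75.4%. The deposited TPM gave 51.5% to 67.8% of each library to 1 gene and a median of 0 to 0.292 to the tested genes, which leaves most genes near the pseudocount. A replicate block gave 669, 2107 and 85 calls, and with only the libraries compared 365, 146 and 1. Deviations of libraries with the same number were correlated for some numbers and not for others. There r was 0.08, 0.48 and -0.11 in the cone culture and 0.30, 0.16 and -0.06 in the rod culture. Libraries with unlike numbers gave r from -0.42 to 0.34 in the cone culture and from -0.31 to 0.22 in the rod culture. Not every pair with the same number passed 0.1, so the numbers were not taken to pair libraries.

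Signs reversed on TPM for Apba2 (-0.58, and -0.10 in the difference), Bmp7 (-0.24), Chil1 (-0.28), Cryab (0.42), Flt1 (-0.060), Fstl1 (-0.32), Glul (-0.11), Gnat2 (0.52), Gnb3 (0.14), Ifit1 (-0.44), Olig2 (-0.51), Prkca (-0.018), Rp1 (0.15), Sesn1 (-0.31), Sox15 (0.15), Tgfb2 (-0.28), Thrb (-0.032), Thrsp (-0.23), Trp53inp1 (-0.26) and Zeb2 (0.19). By voom they reversed for Thbs1 (0.0036), with a mean of at least 1 CPM for Crybb3 (-0.0040) and Olig2 (-0.0035), and with the replicate block and only the libraries compared for Crybb3 (-0.013). With 1 library left out in turn the sign was not steady for 12 uncalled genes. The log2 fold change ranged from -2.09 to 0.65 for Cngb1, -2.17 to 0.34 for Nrl, -1.99 to 1.00 for Rbp3, -1.98 to 0.050 for Rp1 and -1.94 to 0.27 for Sag, each highest without day 12 replicate 2. It ranged from -0.27 to 0.17 for Chrdl1, -0.46 to 0.22 for Cryab, -0.11 to 0.17 for Crybb3, -0.33 to 0.63 for Olig2, -0.13 to 0.41 for Otx1, -0.18 to 0.11 for Thbs1 and -0.14 to 0.84 for Thrb. Beyond the TPM fit the cause was not tested. Of the other values of named genes, 1264 kept direction and side of the threshold, 242 lost their call and 4 gained one.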

Other observations

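A few further genes, chosen after their values were seen, belong to no list above. Ezh2, the methyltransferase of the Polycomb complex and abundant in dividing progenitors, had 86.7, 90.0 and 102 CPM at day 12 and 55.8, 59.8 and 55.5 CPM at day 21 (log2 -0.71 ± 0.13, edgeR adjusted p = 0.00352), and was called in all 6 fits that left out a library. Sox11, a transcription factor of young neurons, had 140, 142 and 189 CPM and then 79.0, 81.2 and 73.4 CPM (log2 -1.01 ± 0.20, edgeR adjusted p = 0.00503, or 0.0509 without day 12 replicate 3). Both were lower in each day 21 library than in any day 12 library.

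Chrna3, a nicotinic acetylcholine receptor subunit, had 15.9, 14.7 and 13.0 CPM at day 12 and 60.9, 66.4 and 39.3 CPM at day 21 (log2 1.94 ± 0.29, edgeR adjusted p = 0.000764). Nptx1, a pentraxin of excitatory synapses, had 4.78, 5.59 and 3.56 CPM and then 6.43, 17.7 and 16.1 CPM (log2 1.55 ± 0.30, edgeR adjusted p = 0.00450). The day 21 libraries lay above the day 12 libraries in both, and both changes exceeded those in the rod culture (difference 2.76, adjusted p = 0.00409 for Chrna3, and 2.65, adjusted p = 0.00424 for Nptx1).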
